A study of Mus musculus with 11 samples.

Results

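The 10 genes described here encode neuronal microtubule-associated proteins: Map1a, Map1b, Map2, Map4, Map6, Mapt, Dclk1, Stmn1, Stmn2 and Mapre2. They were taken by symbol from the 48709 gene identifiers of the count files, and all 10 were among the 17293 genes expressed highly enough to be tested. The family was chosen by the counts themselves, because Map2 was lower in every transgenic library, so the difference between transgenic and control mice had a part in choosing it. For these 10 genes that difference is therefore given as a description, without a p-value, and where members are counted as called the count is no test of them. The libraries were made from polyadenylated RNA of the CA1 field of the hippocampus of 3 months old mice, dissected under a microscope. The genotype of 6 libraries was CamkdeltaC transgenic, and the other 5 came from littermates serving as controls. The transgene encodes a delta C form of CaMKII, a calcium-activated kinase, and the line is known as a heart failure model in which a heart muscle promoter drives the transgene. Strain, sex and litter of a library are not given in the labels, which state that both sexes were used. The labels also do not say that each library is a separate animal, so the errors below measure the spread between these libraries, which may be technical.

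Microtubules are hollow polymers of tubulin that give dendrites and axons their shape and serve as tracks for transport. Structural microtubule-associated proteins bind along the polymer and stabilise or bundle it: MAP2, the protein of Map2, is the classic dendritic marker, tau, the protein of Mapt, is enriched in axons, MAP1B prevails in growing neurons and MAP1A in mature ones. Stathmins bind free tubulin and favour disassembly, while end-binding proteins such as that of Mapre2 ride on growing plus ends. In CA1 pyramidal neurons the Map2 mRNA is one of the transcripts carried into dendrites.

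Map2 and Map4 belong to a subfamily whose proteins share a tubulin-binding repeat near the carboxyl end. The best matching ungapped stretch of 93 coding bases of these genes is printed to show how alike the coding sequences are. The sequences run 5′ to 3′ on the coding strand, were read from GENCODE transcripts on mm10, and span introns. Capitals mark the 69 bases that are identical in both genes.
Map2, chr1:66433577-66438327, plus strand: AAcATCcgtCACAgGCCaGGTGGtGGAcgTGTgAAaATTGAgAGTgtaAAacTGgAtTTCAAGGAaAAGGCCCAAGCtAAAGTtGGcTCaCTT
Map4, chr9:110078066-110079854, plus strand: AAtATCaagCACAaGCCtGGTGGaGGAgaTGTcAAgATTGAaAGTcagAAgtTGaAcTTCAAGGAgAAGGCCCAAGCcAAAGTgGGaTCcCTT
Map2 and Map4 thus matched at 69 of the 93 bases (74.2%). The longest identical run between any of their transcripts was 15 bases, shorter than a read of 50 bases, so that reads of Map2 and Map4 can be told apart by their letters. No stretch of 50 bases in the annotated transcripts of Map1b, Map6 and Mapt occurred in a transcript of another gene. Such stretches, on either strand, made up 0.166% of those of Map2, shared with Gm10558 on the opposite strand, 0.271% of Dclk1, shared with Gm42609, 0.0785% of Mapre2, 0.688% of Map4, 0.893% of Stmn2 and 1.83% of Map1a, shared with Ppip5k1. For Stmn1 the share was 18.9%, most of it in common with Gm11223, so that its count is uncertain. The kit does not mark strand, and reads of genes that overlap on opposite strands, as Map1a and Ppip5k1 do, cannot be separated.

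Map2, the dendritic stabiliser, was lower in every transgenic library than in any control. Its gene (ENSMUSG00000015222) lies on the plus strand of chromosome 1 from 66175273 to 66442583 (mm10). In transgenic libraries 1 to 6 it stood at 1524, 1409, 1556, 1447, 1510 and 1545 CPM, that is, counts divided by the scaled total of the library, on a per-million scale. In control libraries 1 to 5 it stood at 2012, 1727, 1832, 2160 and 2108 CPM. The groups did not overlap, and the transgenic libraries lay closer to each other than the controls did. The means were 1498 ± 58.1 CPM (SD, n = 6) and 1968 ± 184 CPM (SD, n = 5). The edgeR estimate was -0.39 on the log2 scale with a standard error of 0.06, a change in mean CPM of -23.9%. In bulk tissue, fewer cells of a type and less RNA per cell cannot be told apart. The authors' deposited table of lower genes lists Map2 with a log2 fold change of -0.39.

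Map1b, whose protein prevails in growing axons and persists in adult hippocampus, was also lower in every transgenic library. The gene lies on the minus strand of chromosome 13 from 99421446 to 99516540. Transgenic libraries 1 to 6 held 960, 977, 998, 1004, 947 and 955 CPM. Control libraries 1 to 5 held 1189, 1082, 1123, 1198 and 1259 CPM. Every transgenic value lay below the lowest control, control 2. The means were 974 ± 23.6 CPM (SD, n = 6) and 1170 ± 69.1 CPM (SD, n = 5), with an edgeR estimate of -0.27 (SE 0.05). The authors' deposited table of lower genes gives Map1b -0.26.

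Dclk1 encodes doublecortin-like kinase, which binds microtubules through doublecortin domains and also has a kinase domain. It lies on the plus strand of chromosome 3 from 55242364 to 55539068. Transgenic libraries 1 to 6 held 795, 795, 878, 872, 928 and 900 CPM, and control libraries 1 to 5 held 1000, 986, 952, 936 and 987 CPM. The groups did not overlap, but transgenic 5 at 928 CPM came close to control 4 at 936 CPM. The edgeR estimate was -0.17 (SE 0.05), and the authors' deposited table of lower genes gives Dclk1 -0.17. When the fit was repeated 11 times, each time lacking a different library, the 2 fits without transgenic 5 or transgenic 6 called Dclk1. The other 9, without transgenic 1, 2, 3 or 4 or any control, did not, at estimates of -0.15 to -0.19. The estimates over the 11 fits were -0.36 to -0.43 for Map2 and -0.24 to -0.29 for Map1b.

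**Figure D1:**
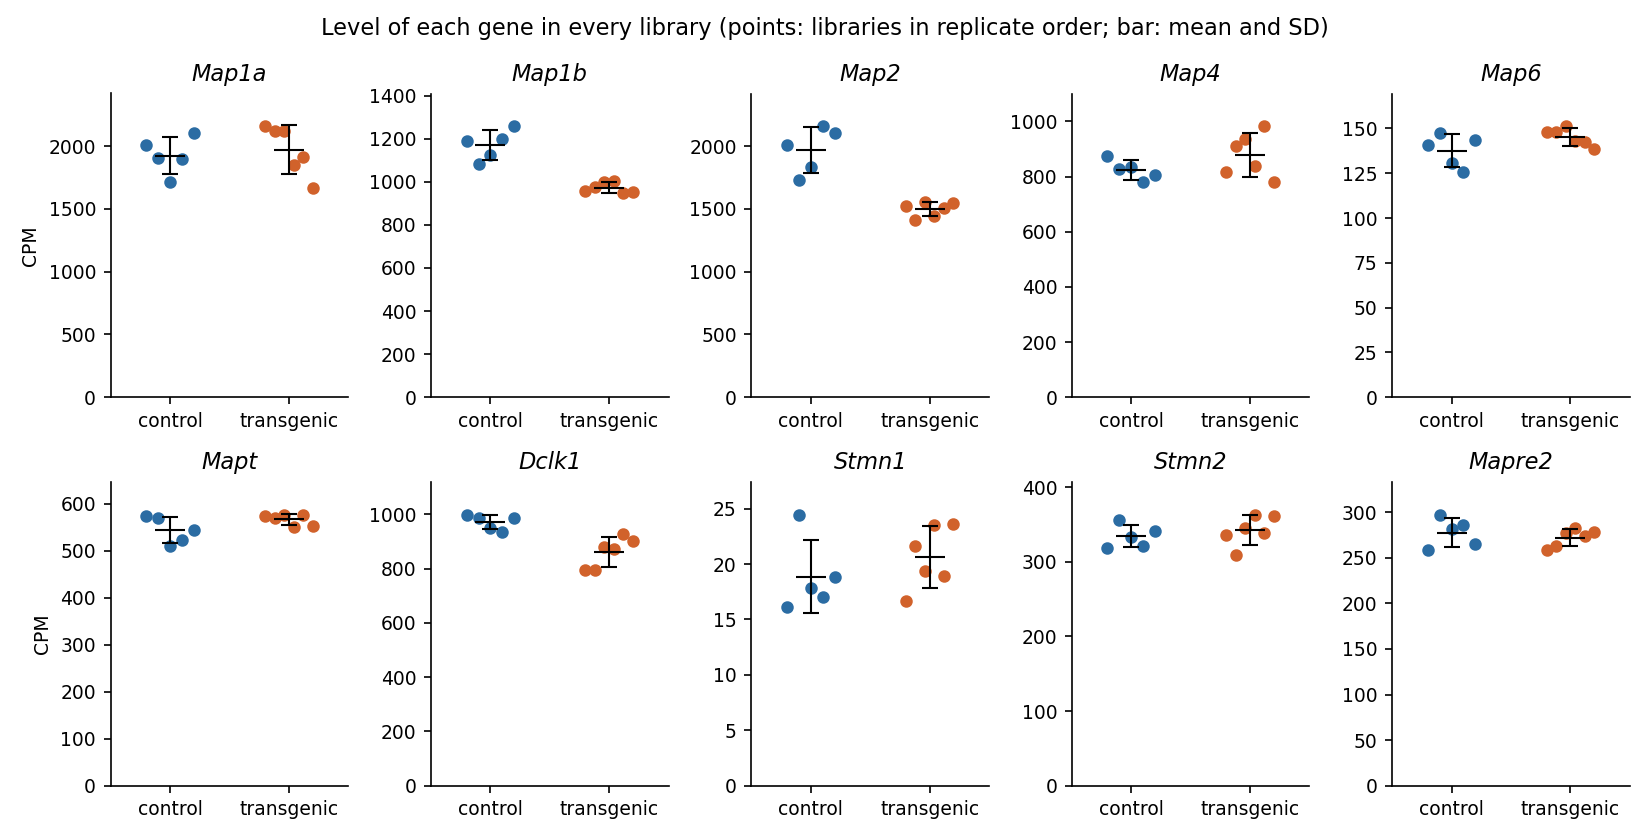
Level of the 10 genes in each library, in CPM (y axes start at 0 and differ between panels), by group on the x axis; points are libraries and bars the mean with SD. Map2, Map1b and Dclk1 separate the groups, with Map2 at 1409 to 1556 in transgenic and 1727 to 2160 in control libraries, while the other 7 genes overlap.

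Of the 10 genes, 3 were called lower at an edgeR adjusted p under 0.05 (Map2, Map1b and Dclk1) and 0 higher. No further member was called by DESeq2, and no member had an unadjusted p under 0.05 with a higher level. Over all genes tested, 10.5% were called lower and 7.41% higher, 17.9% in all. Groups that did not overlap, with all transgenic libraries lower, were found for 3 of the 10 genes and 4.73% of all genes (7.77% in either direction). Since the contrast itself led to the choice of the family, these shares are given side by side without being read further. The median estimate of the 10 genes was 0.03, against 0.01 for all genes tested.

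Map1a encodes the adult partner of MAP1B. Its levels in transgenic libraries 1 to 6 were 2160, 2117, 2123, 1853, 1912 and 1666 CPM, and in control libraries 1 to 5 they were 2010, 1905, 1711, 1898 and 2103 CPM. The groups overlapped, with 3 transgenic libraries above the highest control and transgenic 6 below the lowest. The estimate was 0.03 (SE 0.08).

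Mapt, which encodes tau, ranged from 550 CPM through a median of 572 to 577 CPM in transgenic libraries. Control libraries 1 to 5 held 574, 569, 511, 522 and 544 CPM, and the estimate was 0.06 (SE 0.05). Map4, the form of the subfamily found in most cell types, ranged from 781 CPM through a median of 876 to 983 CPM in transgenic libraries. Controls ranged from 779 to 874 CPM, and the estimate was 0.09 (SE 0.06). Map6, which encodes a protein known for protecting microtubules against cold, was at 138 to 151 CPM in transgenic and 126 to 147 CPM in control libraries (0.08, SE 0.05). All 3 genes overlapped between the groups.

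Stmn1 and Stmn2 encode stathmins, Stmn2 a neuronal one that sits in growth cones. Stmn2 ranged from 309 CPM through a median of 342 to 364 CPM in transgenic libraries, and control libraries 1 to 5 held 319, 356, 334, 322 and 341 CPM (estimate 0.03, SE 0.05). Stmn1 was the lowest of the 10, at 16.7 to 23.6 CPM in transgenic and 16.1 to 24.5 CPM in control libraries (0.13, SE 0.12). Mapre2, the end-binding member, held 259 to 283 CPM in transgenic and 258 to 298 CPM in control libraries (-0.03, SE 0.05). These 3 genes overlapped between the groups as well.

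Ratios within a library do not depend on the scaling of that library. They can still move with GC content, a trend described next. Mapt (52.5%) and Map1a (54.8%) are richer in GC than Map2 (47.8%) and Map1b (47.6%). The ratios were not formed with that trend removed. Map2 stood at 0.666 to 0.927 counts per count of Map1a in transgenic libraries and at 0.906 to 1.14 in controls, so these ranges overlapped, transgenic 6 being the highest of its group. Against Mapt the ratio was 2.47 to 2.79 in transgenic and 3.04 to 4.14 in control libraries, without overlap. Map1b against Map1a was at 0.444 to 0.573 and 0.568 to 0.657. Map2 against Map1b, which were both lower, was at 1.44 to 1.62 and 1.60 to 1.80.

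In these libraries the fold change of a gene moved with its GC content, the share of G and C in its transcript. Within a library, the slope of log2 CPM (as deviation from a gene's mean) was taken per 10 points of GC. In transgenic libraries 1 to 6 it was 0.27, 0.26, 0.18, 0.10, 0.02 and -0.0607. In controls it ran from -0.22 to -0.0617, so the slopes did not overlap between the groups, by a narrow margin. The GC content of the longest annotated transcript was 47.8% for Map2, 47.6% for Map1b, 46.3% for Dclk1, 47.7% for Mapre2 and 41.3% for Stmn2, all below the median of 49.6% of all genes tested. It was 51.1% for Stmn1, 52.5% for Mapt, 53.1% for Map4, 54.8% for Map1a and 56.0% for Map6. Among the 1862 tested genes with 46 to 48% GC the median log2 fold change was -0.07, with a 10th percentile of -0.29 and a 90th of 0.15. Map2 lay below that 10th percentile, Map1b and Dclk1 above it. Among the 1068 genes with 40 to 42% GC the median was -0.29 and the 90th percentile -0.02, and Stmn2 at 0.03 lay above both.

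**Figure D2:**
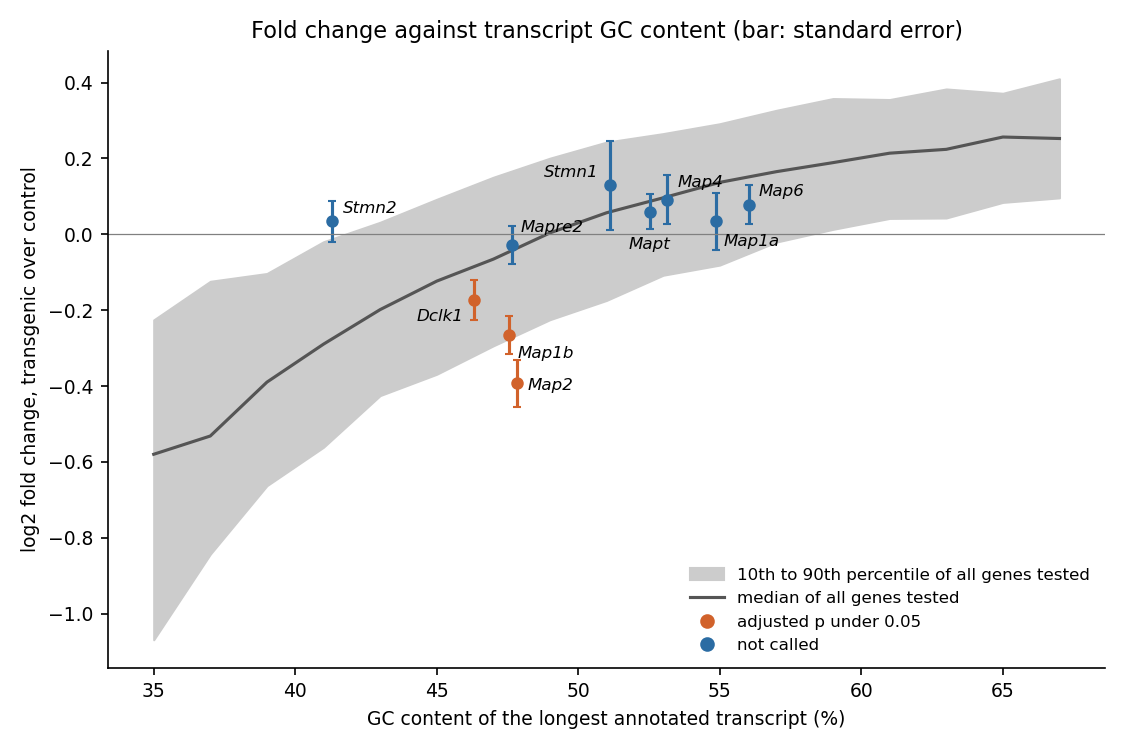
log2 fold change of transgenic over control (y axis) against the GC content of the longest annotated transcript in percent (x axis). Points are the 10 genes with their standard error, coloured by whether edgeR called them, and the line and band give the median and the 10th to 90th percentile of all genes tested in steps of 2 GC points; Map2 (-0.39) lies below the band and Stmn2 (0.03) above it.

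After correction of every library for its GC trend, Map2 was at -0.36 (SE 0.06) and Map1b at -0.22 (SE 0.04). Dclk1 went to -0.10 (SE 0.04) and Stmn2 to 0.31 (SE 0.06), the latter with log2 CPM of 8.41 to 8.67 in transgenic and 8.12 to 8.39 in control libraries. The value for Stmn2 rests on the transcript taken: its longest one, of 3413 bases, has 41.3% GC, and the one of 2073 bases with the longest coding sequence has 46.1%. A correction with the latter was not run. The GC content of Map2 is likewise that of its longest transcript, of 6258 bases, while its annotated exons cover 16449 bases. Its place in the GC range and its corrected estimate rest on that choice, and no other value was tried. The counts of called genes became 2 lower (Map2 and Map1b) and 1 higher (Stmn2) of the 10, where 0.821% and 1.16% of all genes were called in these directions and 1.98% in all. Without overlap between the groups, 2 of the 10 were lower and 1 was higher, against 1.45% and 2.0% of all genes (3.44% in all). Map1a, Map4, Map6 and Mapt had estimates of -0.10, -0.01, -0.07 and -0.03 after the removal, each at or below 0 where it had been above. With a trend on exon length removed as well, Map2 was at -0.28 (SE 0.05), Stmn2 at 0.31 (SE 0.06) and Map1b at -0.14 (SE 0.04), and the counts were 1 lower (Map2) and 1 higher (Stmn2). Over all genes 0.544% were then called lower and 1.16% higher, 1.70% in all.

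Leaving out 1 library at a time with the GC trend removed kept Map2 between -0.33 and -0.40, Map1b between -0.20 and -0.25 and Stmn2 between 0.28 and 0.36. The calls of these 3 genes were lost on leaving out any 1 of transgenic 1 to 4 or control 1, 3, 4 or 5. In those 8 fits edgeR called 0 of all genes tested, with 2490 to 3225 at an unadjusted p under 0.05. The source of the GC trend was not tested. Its slopes separated the groups, so trend and genotype cannot be told apart. Removing the trend may also take out differences between the genotypes.

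**Figure D3:**
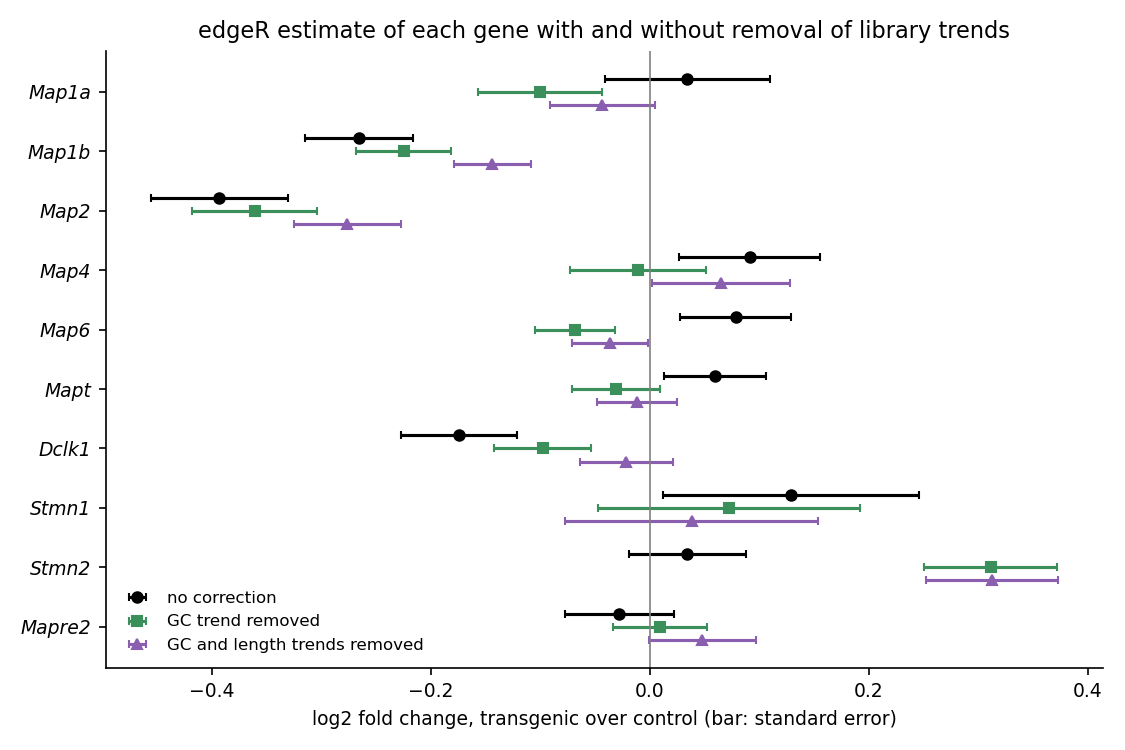
edgeR log2 fold change of transgenic over control (x axis, bars: standard error) for the 10 genes, without correction, with the GC trend of each library removed, and with GC and length trends removed. Map2 stays between -0.39 and -0.28 and Stmn2 moves from 0.03 to 0.31.

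Sex is a further difference among the libraries. Xist, expressed from the inactive X chromosome, was at 594 to 631 CPM in transgenic 1, 2 and 3 and at 1019 to 1088 CPM in control 1, 3 and 4. Ddx3y, a Y-linked gene, was at 43.5 to 75.6 CPM in transgenic 4 and 6 and control 2 and 5. Transgenic 5 had neither, with Xist at 0.729 CPM and Ddx3y at 0 CPM. In the libraries with Xist, Map2 was at 1409 to 1556 CPM in transgenic and 1832 to 2160 CPM in control mice. In those with Ddx3y it was at 1447 to 1545 and 1727 to 2108 CPM. Map1b did not overlap in either subset, at 960 to 998 against 1123 to 1198 CPM and at 955 to 1004 against 1082 to 1259 CPM. Dclk1 was at 795 to 878 against 936 to 1000 CPM and at 872 to 900 against 986 to 987 CPM. Map2, Map1b and Dclk1 were lower in transgenic libraries within both subsets. This order follows from groups that did not overlap over all libraries, so the subsets are no separate test. A fit with Xist as covariate gave estimates of -0.39, -0.26 and -0.19. Among the libraries with Xist its level also differed between the groups, so this covariate is not a measure of sex alone. With only transgenic 4 and 6 and control 2 and 5, edgeR called 0 of all genes (856 at an unadjusted p under 0.05), with Map2 at -0.35.

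Map2 is a neuronal transcript, and the summed level of a list of neuron markers differed between the groups, though its members went in both directions. The 8 neuron markers (Rbfox3, Snap25, Syt1, Eno2, Syn1, Thy1, Elavl3 and Elavl4) summed to 6008 to 6643 CPM in transgenic and 6697 to 6970 CPM in control libraries, and none was at 0. By edgeR, Snap25, Syt1 and Elavl4 fell and Thy1 rose, at log2 fold changes of -0.27, -0.21, -0.49 and 0.21 (adjusted p 0.0310, 0.0393, 0.0342 and 0.0414). The markers that differed most in CPM were Snap25, at a mean of 2194 CPM in control and 1819 CPM in transgenic libraries, and Syt1, at 1630 and 1410 CPM. Rbfox3, Eno2, Syn1 and Elavl3 had estimates of 0.16, 0.09, 0.09 and 0.08 that did not pass the test, and the median of the 8 was 0.08. After removal of the GC trend 0 of the 8 were called, with 2 at an unadjusted p under 0.05. Snap25, Syt1, Elavl4 and Thy1 were then at 0.13, -0.12, -0.12 and 0.06, so that Snap25 changed sign. As a share of that neuron marker sum, Map2 was at 22% to 24.2% in transgenic and 24.8% to 31.9% in control libraries, still without overlap. The same shares overlapped for Map1b, at 14.3% to 16.3% and 15.5% to 18.4%, and for Dclk1, at 12.6% to 14% and 13.8% to 14.9%.

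For the other 10 marker lists, of cells that the dissection could hold, the summed levels overlapped between the groups. The 8 CA1 pyramidal markers, such as Wfs1, summed to 1337 to 1717 CPM in transgenic and 1245 to 1517 CPM in control libraries, and the labelled field was thus present in all libraries. edgeR called 0 of these 8, with 4 at an unadjusted p under 0.05 and 2 called by DESeq2. Oligodendrocyte markers, of cells that also express Mapt and Map4, summed to 1666 to 3246 CPM and 1630 to 2784 CPM. Dentate gyrus markers summed to 48.9 to 152 CPM and 41.5 to 175 CPM, and those of CA3 and CA2 to 144 to 199 CPM and 135 to 216 CPM. By edgeR 1 of 8 astrocyte markers rose and 1 fell, and 1 of 4 oligodendrocyte precursor markers rose. Of microglia markers 2 of 6 rose, with 1 lower at an unadjusted p under 0.05, and of vessel markers 1 of 7 fell. Over all genes tested 7.41% were called higher and 10.5% lower. On the GC-corrected scale edgeR called 0 genes of these 4 lists, with 1 astrocyte marker at an unadjusted p under 0.05. None of the listed markers was at 0 in all libraries. Immature neuron markers, relevant for Map1b, Stmn1 and Dclk1, summed to 59.8 to 87.7 CPM in transgenic and 81.9 to 95.3 CPM in control libraries. Of 5 such markers tested, Dcx and Neurod1 fell by edgeR (adjusted p 0.0461 and 0.0123). Neither call held with the GC trend removed (-0.20 and -0.41, edgeR adjusted p 0.383 and 0.0865). The other markers tested went in both directions and were not called, with Sox11 at -0.42, Sox4 at 0.27 and Igfbpl1 at 0.20. Eomes was at 0 to 0.314 CPM and was not tested. The part of these markers in the levels of the 10 genes was not tested.

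The control libraries alone give the order of the genes without the contrast. Per kilobase of all annotated exons, Map1a was highest, at 158 ± 12.1 CPM per kilobase (SD, n = 5), followed by Map2 at 120 ± 11.2. Map1b at 73.9 ± 4.36, Mapt at 72.2 ± 3.71, Dclk1 at 63.5 ± 1.75, Stmn2 at 59.7 ± 2.67 and Map4 at 54.4 ± 2.35 CPM per kilobase came next. Mapre2 at 27.2 ± 1.57, Map6 at 15.0 ± 0.997 and Stmn1 at 9.81 ± 1.71 CPM per kilobase were lowest. The place of Stmn1 is uncertain, since 18.9% of the 50-base stretches of its transcripts are shared with other genes. Of the 9 neighbouring pairs in this order, 6 had ranges that did not overlap. Map1b and Mapt, Dclk1 and Stmn2, and Stmn2 and Map4 overlapped. Among the 17293 genes tested Map1a ranked 145, Map2 213 and Map1b 411, while Map6 ranked 3185 and Stmn1 4783.

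The length chosen for a gene changes this order. Map2 has 24 annotated transcripts that together cover 16449 bases, while the longest is 6258 bases. Per kilobase of the longest annotated transcript Map2 was first, at 314 ± 29.4 CPM per kilobase, ahead of Map1a at 163 ± 12.4 (SD, n = 5), and Map4 came next at 135 ± 5.83. Gene counts do not separate the long and short forms of Map2 and Mapt.

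**Figure D4:**
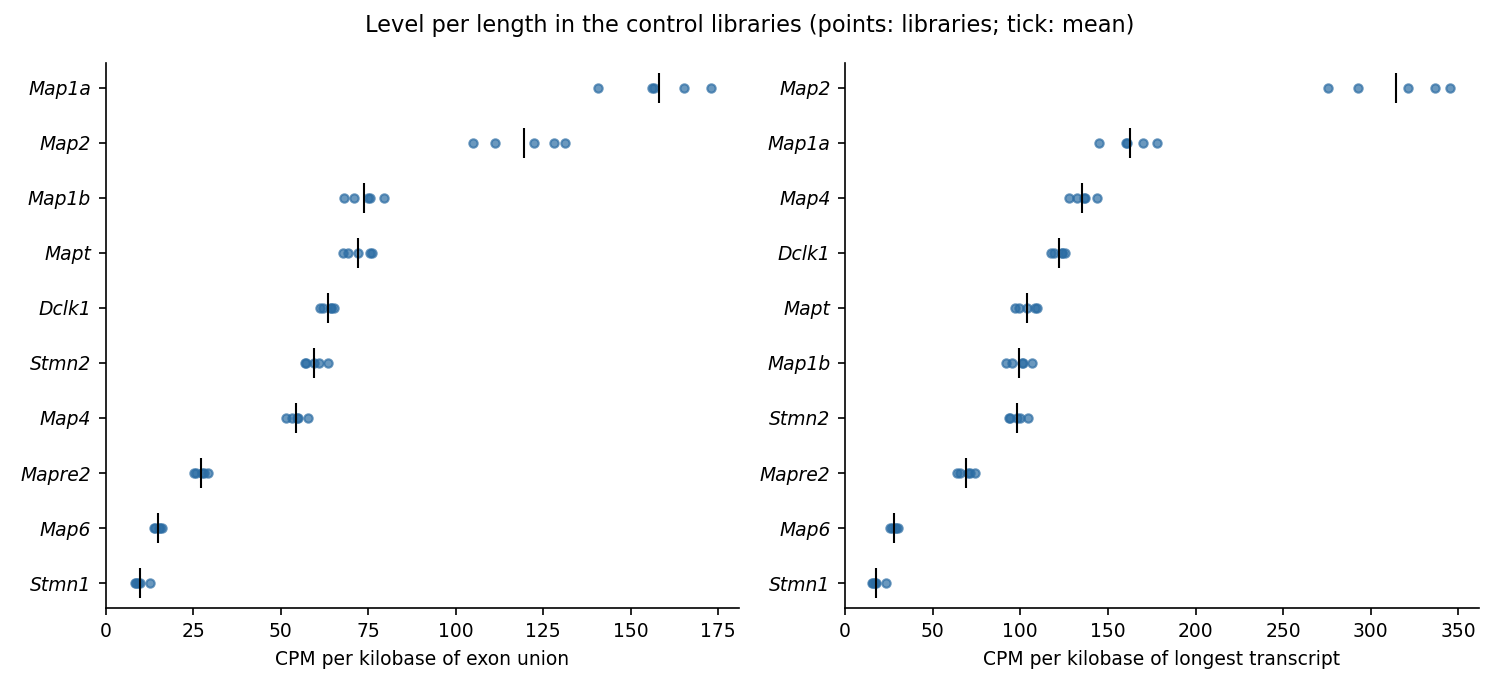
Level of the 10 genes in the 5 control libraries, in CPM per kilobase (x axes, from 0) of all annotated exons at left and of the longest annotated transcript at right; points are libraries and ticks means. Map1a (158) leads Map2 (120) at left, and Map2 (314) leads Map1a (163) at right.

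Within groups, after each group's mean had been taken out, the 10 genes did not move as a block. Over the 45 pairs the median Pearson r of log2 CPM across the 11 libraries was -0.04, with 8 pairs above 0.5 and 2 below -0.5. The points share library depth and the GC trend, and the r values are descriptions only. Map2 and Map1b had an r of 0.71, and 0.68 with the GC trend removed. Map2 was unlike Mapt (-0.13) and Dclk1 (0.11), and ran against Stmn1 (-0.57). Map6 and Mapt had an r of 0.79. With the GC trend removed, 9 pairs were above 0.5, among them Mapt and Dclk1 (0.89) and Map6 and Dclk1 (0.89).

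Outside the family, the genes most like Map2 within groups were sought among 6270 genes with a mean log2 CPM of at least 5. They were Cnot4 (r 0.90), a subunit of a deadenylase complex, Tcaf1 (0.90), Ankrd17 (0.90), C530008M17Rik (0.90) and Neto1 (0.89), an auxiliary protein of glutamate receptors. Their log2 fold changes were -0.29, -0.21, -0.14, -0.20 and -0.47, of which that of C530008M17Rik was not called. With the GC trend removed, among 6264 genes, the nearest were C530008M17Rik (0.95), Psd3 (0.94), Bahcc1 (0.93), Zbtb16 (0.92) and Grm5 (0.91), a metabotropic glutamate receptor. Their log2 fold changes without correction were -0.20, -0.40, -0.02, -0.04 and -0.55, with C530008M17Rik, Bahcc1 and Zbtb16 not called. C530008M17Rik was in both sets. Each set holds the 5 highest of all the r values over 11 libraries, and how high r would reach by chance in such a search was not tested.

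Promoters of 5 of the 10 genes were in the RefSeq table used here (build GRCm38.p6), which had no entry for Map6, Mapt, Stmn1, Stmn2 and Mapre2. Those of Map2 and Map1b, the members with the largest negative estimates, are printed as the 250 bases before the start in that table, 5′ to 3′. This RefSeq start lies inside the GENCODE gene for Map2 and upstream of it for Map1b, so the windows depend on the annotation. Capitals mark the motifs TATAAA and GGGCGG on either strand.
Map2, chr1:66175079-66175328, plus strand: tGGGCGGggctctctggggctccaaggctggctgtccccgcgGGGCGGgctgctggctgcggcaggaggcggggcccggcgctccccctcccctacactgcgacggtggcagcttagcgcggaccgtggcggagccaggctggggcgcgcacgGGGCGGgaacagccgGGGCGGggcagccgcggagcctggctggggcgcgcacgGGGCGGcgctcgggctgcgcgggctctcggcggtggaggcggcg
Map1b, chr13:99516603-99516852, minus strand: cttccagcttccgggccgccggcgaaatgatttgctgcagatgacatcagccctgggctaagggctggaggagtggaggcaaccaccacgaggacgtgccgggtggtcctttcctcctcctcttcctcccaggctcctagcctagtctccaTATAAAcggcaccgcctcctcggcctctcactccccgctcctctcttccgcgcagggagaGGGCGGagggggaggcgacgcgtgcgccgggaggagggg
The Map2 window had 81.2% GC, 34 CG pairs, 5 matches to GGGCGG and 0 to TATAAA. The Map1b window had 66.4% GC, 19 CG pairs, 1 match to GGGCGG and 1 to TATAAA, which ended 93 bases before the RefSeq start. Over all 32851 promoters of the table, the median was 52.4% GC and 6 CG pairs, 32.7% held GGGCGG and 12.4% held TATAAA. The Map2 window is richer in GC than its longest transcript (47.8%).

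Other microtubule genes, from 8 lists chosen for their roles, moved in both directions. Of 117 listed genes 115 were tested, and edgeR called 20 higher (17.4%) and 13 lower (11.3%), beside 7.41% and 10.5% of all genes. The median log2 fold change was 0.03. The counts moved with the libraries kept. On leaving out any 1 of transgenic 1 to 4 they were 6 to 11 higher and 5 to 7 lower. For control 1, 3, 4 or 5 they were 6 to 9 higher and 4 to 7 lower. Over all genes these fits called 1154 to 2186, against 3094 with all libraries. At an unadjusted edgeR p under 0.05 they had 26 to 33 of the 115 higher and 18 to 20 lower, beside 32 and 22. Without transgenic 6 the called counts were 34 higher and 17 lower. After removal of the GC trend edgeR called 0 of the 115, with 25 at an unadjusted p under 0.05 and the lowest adjusted p at 0.0529.

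Tubulin genes, the building blocks of the polymer, showed 8 of 15 called higher and 0 lower (0 lower also at an unadjusted p under 0.05; DESeq2 called 9 of 15). Tuba1b, an alpha tubulin, rose by 0.35 (SE 0.08, edgeR adjusted p 0.0157), from 36.0 ± 5.26 CPM (SD, n = 5) to 45.8 ± 1.64 CPM (SD, n = 6). Tuba4a and Tubb5 rose by 0.22 and 0.20 (edgeR adjusted p 0.0155 and 0.0252). With the GC trend removed Tuba1b, Tuba4a and Tubb5 were at 0.21, 0.13 and 0.12 and not called. The median of the list stood at 0.20, or 0.07 once GC was corrected. Within the alpha and within the beta family tubulin genes are alike in sequence, and how far their reads could be split between copies was not checked.

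Among 7 other stathmin and CRMP genes, Stmn4 and Stmn3 rose by 0.24 and 0.18 (edgeR adjusted p 0.0127 and 0.0337). On the GC-corrected scale they were at 0.13 and 0.01 and not called. Of 18 further lattice-binding genes 3 were called lower and 2 higher. Map9 and Camsap2, which binds microtubule minus ends, fell by 0.26 and 0.23 (edgeR adjusted p 0.0175 and 0.0166), and Mtus2 rose by 0.17 (adjusted p 0.0424). With the GC trend removed Map9, Camsap2 and Mtus2 were at -0.05, -0.15 and 0.05 and not called.

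Of 16 plus-end and cross-linking genes 3 were called lower and 0 higher by edgeR (3 higher at an unadjusted p under 0.05; 6 called by DESeq2 in either direction). Kif2a, a depolymerising kinesin, fell by 0.31 (edgeR adjusted p 0.0164), Slain2 by 0.26 (adjusted p 0.0376) and Clasp2, a plus-end stabiliser, by 0.22 (adjusted p 0.0393). Once GC was corrected Kif2a turned to 0.11 (adjusted p 0.289). Spast, the severing enzyme spastin, fell by 0.32 (edgeR adjusted p 0.0236), the 1 of 7 severing genes called. Another severing gene was higher at an unadjusted edgeR p under 0.05. With the GC trend removed Slain2, Clasp2 and Spast were at -0.17, -0.08 and -0.15 and not called.

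Among 20 tubulin folding and modification genes 4 were called higher and 2 lower. Tpgs1 and Ttll1, of the polyglutamylating enzyme complex, rose by 0.36 and 0.22, and Tbcb, a tubulin folding cofactor, rose by 0.24 (edgeR adjusted p 0.0157, 0.0144 and 0.0127). With the GC trend removed Tpgs1, Ttll1 and Tbcb were at 0.10, 0.13 and 0.09 and not called. Tpgs1 has 65.3% GC, and the 63 tested genes with 64 to 66% had a median of 0.26 before that removal. Among 20 kinase and phosphatase genes 4 were called higher and 2 lower. Ttbk2, a tau-tubulin kinase, fell by 0.49 (SE 0.12, edgeR adjusted p 0.0175). Cdk5r2, an activator of the tau kinase Cdk5, and Ppp2r1a, a scaffold of phosphatase 2A, rose by 0.33 and 0.19 (edgeR adjusted p 0.0257 and 0.0321). Ttbk2, Cdk5r2 and Ppp2r1a were at -0.28, 0.08 and 0.06 after GC correction and not called.

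Among 12 genes of the neurofilament, spectrin and ankyrin cytoskeleton 2 were called lower and 0 higher by edgeR (1 higher at an unadjusted p under 0.05; 3 called by DESeq2 in either direction). Nefl, the light neurofilament, fell by 0.29 (SE 0.08, edgeR adjusted p 0.0221), with 283 to 370 CPM in control and 241 to 294 CPM in transgenic libraries. After GC correction its estimate was the same, -0.29, but missed the threshold (adjusted p 0.0551). Ank3, the ankyrin of the axon initial segment, fell by 0.20 (edgeR adjusted p 0.0397). After GC correction Ank3 was at -0.18 and not called.

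**Figure D5:**
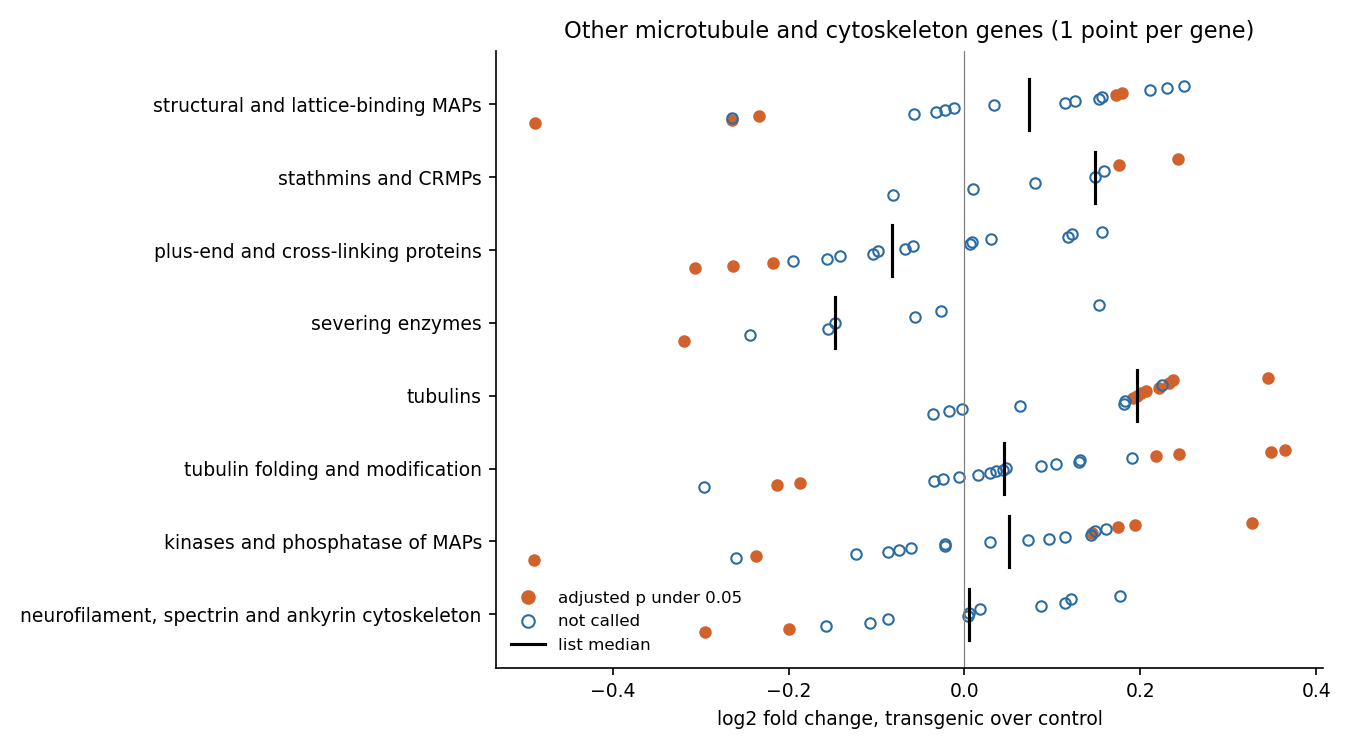
log2 fold change of transgenic over control (x axis) for the 115 other microtubule and cytoskeleton genes tested, by list (y axis); each point is a gene, filled where the edgeR adjusted p was under 0.05, and the black tick is the list median. Tubulins stand at a median of 0.20 with 8 of 15 called higher. Plus-end (3 of 16), severing (1 of 7) and neurofilament, spectrin and ankyrin genes (2 of 12) had calls only in the lower direction. At an unadjusted edgeR p under 0.05 these lists also held 3, 1 and 1 genes higher. Over all genes tested 10.5% were called lower and 7.41% higher. With the GC trend removed 0 of the 115 were called.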

How the data were processed

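RNA of hippocampal CA1 was sequenced from 6 transgenic and 5 control libraries as single-end reads of 50 bases from TruSeq libraries, per the labels' protocols; the kit version they name does not mark strand. The authors deposited raw counts per gene for 48709 Ensembl identifiers on mm10. Per the submitters' processing notes, STAR 2.5.2b, Subread 1.5.1 with featureCounts, and FastQC 0.11.5 were used, with settings not given in the sources used here. Deposited tables list 2014 lower and 1780 higher genes with the authors' log2 fold change and adjusted p-value. The per-library values deposited there are a signal in which each count is divided by 1 size factor per library, and were not used. Libraries held 14263784 (control 5) to 36898689 counts, the others at least 24403918. Within groups, the chi-square between 2 libraries divided by its degrees of freedom was 6.75 to 53.8, so none was counted as a duplicate.

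Names, positions and lengths came from GENCODE M21 on the same build, which named 48349 identifiers. GC content, known for 17246 of 17293 tested genes, was that of the longest transcript. Genes were kept with filterByExpr, scaled by TMM and tested with edgeR 4.0.16 (quasi-likelihood F test, R 4.3.3), with Benjamini-Hochberg adjustment over all genes tested and adjusted p under 0.05 as a call. SE came from the fold change and F, and log2 CPM used a prior count of 2. The GC trend was a lowess curve (span 0.3) per library, entered as an offset. The length trend was fitted on what it left. DESeq2 1.42.0 and limma 3.58.1 served as alternatives. The procedure was tested on simulated data. The members and gene lists were chosen with earlier results of these data known. Named genes were the 10 members, up to 3 called genes with the smallest p from each list, and the 5 genes most like Map2. The neuron markers and the immature neuron markers were named after their values were seen.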

Additional observations from a re-analysis of the deposited data

Results flagged for a closer look

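Map1a and Map6 differed in opposite directions between transgenic and control libraries depending on the sex-linked genes. In the 6 libraries with Xist, the transgenic ones were all above the controls, with log2 ratios of mean CPM of 0.19 for Map1a (2117 to 2160 against 1711 to 2010 CPM) and 0.17 for Map6 (148 to 151 against 126 to 141 CPM). In the 4 libraries with Ddx3y they were all below, at -0.19 for Map1a (1666 to 1853 against 1905 to 2103 CPM) and -0.0493 for Map6 (138 to 143 against 144 to 147 CPM). The difference between the subsets was not tested, and the subsets were formed from the data. The transgenic libraries with Xist also had the highest GC slopes. With the GC trend removed, log2 CPM of Map1a with Xist overlapped, at 10.92 to 10.97 in transgenic and 10.84 to 11.03 in control libraries, while with Ddx3y it was at 10.72 to 10.81 and 10.91 to 11.11. For Map6 it overlapped with Xist (7.06 to 7.15 and 7.09 to 7.20) and was at 7.11 to 7.14 and 7.22 to 7.24 with Ddx3y. In the 20 sets formed by the 10 genes and 2 groups, 0 had a single library far from the rest, where chance flags about 1 in 20.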

How the results depend on the processing

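Map2, Map1b and Dclk1 had negative and Stmn1 and Stmn2 positive estimates in all 35 alternatives, a direction that for Map2 the choice of the family fixed, so that the counts of members called below are no test of them. The number of genes called, transgenic against control, was 3094. It was 4774 with limma voom, 342 with the GC trend removed, 294 with GC and length trends removed and 0 with only the libraries with Ddx3y above Xist, where 0 members and 0 other microtubule genes were called lower and 0 others higher. Leaving out 1 library gave 1154 to 4712 genes (controls 4, 5, 3 and 1 left out: 1154, 1289, 1572 and 1832; transgenics 2, 3, 1 and 6 left out: 1285, 1480, 1670 and 4712), 2 to 3 members called lower and 0 higher, and 4 to 17 other microtubule genes called lower and 6 to 34 higher. Other microtubule genes called lower and higher were 8 and 9 with no filter, 0 and 0 with the GC trend removed, when 1 member was called higher, and 1 and 1 with GC and length trends removed, when 1 member was called lower and 1 higher. limma voom called 31 of them higher. The libraries with Xist above 100 CPM, chosen after seeing the data, gave 5101 genes and 36 others higher. Removal of the GC trend and 1 library together, also added after seeing the data, gave 0 to 942 genes (308 without transgenic 5, 513 without control 2), 0 to 2 members lower, 0 to 1 higher, and 0 to 2 others in each direction.

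The replicate numbers do not pair the libraries: same-numbered libraries had correlations of -0.19 to 0.20 of their deviations, above 0.1 in 1 of 5 pairs. With the replicate block 4594 genes, 3 members lower, 15 others lower and 33 others higher were called. With the GC trend removed and the replicate block it was 746 genes, 1 member lower, 1 higher, 1 other lower and 2 higher.

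Kif2a turned to 0.11 with the GC trend removed, 0.12 with GC and length removed, 0.14 with GC removed and the block, and 0.084 to 0.145 with GC removed and 1 library left out (0.084, 0.0896, 0.0925, 0.1031, 0.1052, 0.1061, 0.1108, 0.1176, 0.123, 0.1235 and 0.145). Stmn3 turned to -0.0398 with GC and length removed, -0.0029 with GC removed and the block, and -0.0005, -0.0026, -0.0043 and -0.005 with GC removed and control 1, transgenic 6, transgenic 4 or control 5 left out. The cause of these changes was not tested. The order of control levels had 6 separate neighbours with exon length and 7 with the longest transcript. Stmn1, at 16.1 to 24.5 CPM, had the largest standard error of the members (0.12).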
